A study of Drosophila melanogaster with 12 samples.

Results

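This section describes 7 genes, miple2, Sil1, Swim, CG3164, CG8026, CG14903 and Serinc, whose array signal was divided differently between nucleus and cytoplasm after RNA interference (RNAi) against the splicing factor U2AF50, or rose mainly in the cytoplasm. Each gene had 1 probe set that carried its symbol alone, so the set is 7 of the 10843 genes with such a probe set. All 7 lay above the filter on dim signal that left 8379 of 13966 probe sets for testing. That filter used the mean over all 12 arrays, so a bright signal in either fraction alone could carry a gene past it. The cells were D. mel-2, a fly line derived from embryonic Schneider cells. They had been treated either with non-specific RNAi, which served as the control, or with RNAi against U2AF50, and RNA was taken from the cytoplasm or from the nucleus. These 4 groups had 3 one-colour Affymetrix arrays each, 12 in all. All groups had thus been exposed to an RNAi treatment, and the labels name hypotonic lysis as the fractionation for part of the samples only. They do not state the age of the cultures, the duration of RNAi or whether the replicates came from different cultures. A p-value here therefore refers to the scatter among these arrays, and that scatter may be technical.

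U2AF is the heterodimer that recognises the 3' end of introns, and U2AF50 is its large subunit, which binds the pyrimidine-rich stretch there. The proteins encoded by the 7 genes are diverse. miple2 encodes a secreted, heparin-binding protein of the midkine and pleiotrophin family. Sil1 encodes a nucleotide exchange factor of BiP, the Hsp70 chaperone in the lumen of the endoplasmic reticulum (ER). Swim encodes a secreted protein that binds the signalling protein Wingless and whose sequence is related to cysteine cathepsins. CG3164 is an ABC transporter gene of subfamily G, Serinc encodes a membrane protein with several membrane spans, and CG8026 encodes a member of the mitochondrial carrier family. No role is given here for CG14903. In general, mRNAs of secreted proteins and of most membrane proteins are translated on ribosomes bound to the ER, whereas those of mitochondrial carriers are translated mainly on free ribosomes. How much ER the nuclear fraction had kept was not measured in these data.

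The values are intensities on a linear scale, which the authors had scaled to a common level. Their medians lay between 334 and 497 on the 12 arrays. Log2 changes were computed after adding 94.7 to every intensity and quantile normalising the arrays. They are given with limma standard errors (SE), with 3 arrays a group and 1 spread per probe set shared by all 12 arrays. Where a group scatters more than the others, such an SE understates its error. The control cytoplasm of CG3164 and of Serinc did so, with a log2 SD of 0.76 each. Their other groups had 0.15 to 0.25 and 0.08 to 0.34. Within a group, any pair of arrays had a Pearson r of 0.854 to 0.958 over the tested probe sets. The RNAi target itself, U2af50, gave cytoplasmic intensities of 2474, 5606 and 4751 in the control and 1030, 1327 and 1143 after U2AF50 RNAi (log2 change -1.75, SE 0.26, limma adjusted p = 0.0012). Its nuclear log2 change of 0.21 (SE 0.26, limma adjusted p = 0.7384) did not pass the test. Of 10 measured markers of blood-like cells, the type this line resembles, 9 lay above the filter, as did both measured fat body markers, Fbp1 and Lsp2, but none of the measured neuronal, muscle or germ line markers. Noncoding RNAs of the nucleus could not serve to check the fractions, because 0 of 3 listed had a named probe set here. A nucleus to cytoplasm ratio compares signals that were each scaled to their own array, so it does not say how a gene's mRNA molecules were divided.

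The genes were picked by their change with U2AF50 RNAi, so these changes are given as a description, and no test of them is offered as a result. Of the 7 genes, 4 had all 3 depleted cytoplasmic arrays above all 3 control arrays, where 14.5% of all tested probe sets did. In the nucleus 4 had all depleted arrays below all controls (10.2% of tested probe sets) and 2 had them above (9.99%). The genes took 4 courses. The signal of miple2, Sil1 and CG3164 was higher in the cytoplasm and lower in the nucleus, Swim and CG8026 differed in the nucleus alone, CG14903 was higher in the nucleus, and Serinc was higher in both fractions but more so in the cytoplasm.

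**Figure D1:**
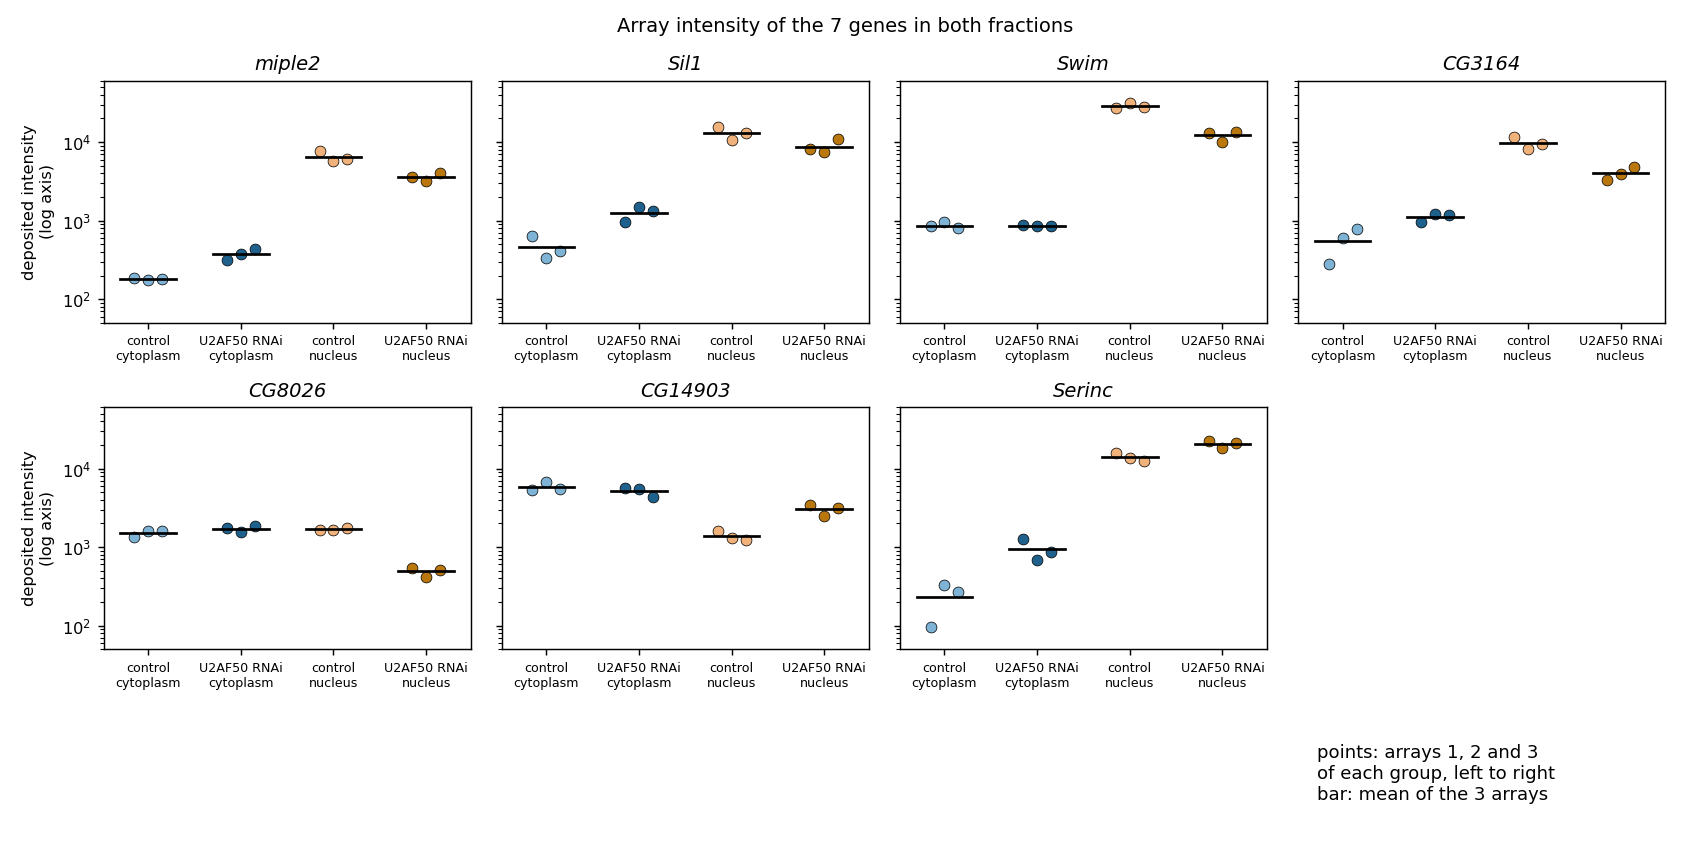
Deposited intensity (log axis) of each of the 7 genes on the 12 arrays, by fraction and treatment. Points are arrays 1 to 3 of a group and bars are group means. The nuclear signal of miple2, Sil1, Swim, CG3164 and Serinc lies far above the cytoplasmic one under both treatments, whereas CG14903 has the reverse order and CG8026 is level in the control and low in the depleted nucleus.

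miple2 (probe set 147919_at) gave cytoplasmic intensities of 185, 175 and 179 in the control and 313, 372 and 439 after depletion. Its nuclear intensities were 7638, 5758 and 6147 in the control and 3642, 3184 and 4061 after depletion. The groups overlapped in neither fraction, with the depleted arrays above the control in the cytoplasm and below it in the nucleus. The log2 change was 1.02 (SE 0.23) in the cytoplasm and -0.69 (SE 0.23) in the nucleus. The log2 nucleus to cytoplasm ratio went from 4.59 (SE 0.23) in the control to 2.89 (SE 0.23), a difference of -1.7 (SE 0.32). In the control cytoplasm miple2 stood between the 28th and the 35th percentile of its array, in the dim range where the added 94.7 holds down a log2 change, and in the control nucleus at the 95.2 to 96.3 percentile. With 1 added instead, the cytoplasmic log2 change was 1.38 (SE 0.26).

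Sil1 (153052_at) had cytoplasmic intensities of 642, 333 and 416 in the control against 970, 1488 and 1342 after depletion, without overlap. In the nucleus they were 15629, 10574 and 13257 against 8122, 7377 and 10872, where the highest depleted array lay above the lowest control. The difference therefore stood out more in the cytoplasm, with a log2 change of 1.3 (SE 0.2), than in the nucleus, with -0.4 (SE 0.2). The log2 nucleus to cytoplasm ratio was 4.5 (SE 0.2) in the control and 2.8 (SE 0.2) in depleted cells, a difference of -1.7 (SE 0.29). With arrays centred on their medians the nuclear change was -0.74 (SE 0.25) instead of -0.4.

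CG3164 (145511_at) gave 281, 593 and 785 in the control cytoplasm and 963, 1219 and 1169 in the depleted cytoplasm. Its nuclear intensities were 11477, 8189 and 9427 against 3286, 3938 and 4773. Both pairs of groups were free of overlap, and the ratio difference was the largest in size among the 7 genes, -2.15 (SE 0.4), from 3.99 to 1.84 (SE 0.29 each). The log2 change was 1.04 (SE 0.29) in the cytoplasm and -1.1 (SE 0.29) in the nucleus. The first control cytoplasm array was the lowest by a wide margin. Without it the cytoplasmic change was 0.62 (SE 0.21) and the ratio difference -1.72 (SE 0.28). With the hybridisation controls as a covariate the cytoplasmic change was 0.49 (SE 0.24) and the ratio difference -1.38 (SE 0.33).

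Swim (153218_at) had almost the same cytoplasmic signal under both treatments, 843, 955 and 798 in the control and 874, 862 and 857 after depletion (log2 change 0.08, SE 0.16). In the nucleus its intensities were 26968, 31391 and 27982 in the control, at the 99.0 to 99.2 percentile of the array, and 13102, 10003 and 13418 after depletion. Every depleted nuclear array lay below every control, and the log2 change there was -1.16 (SE 0.16). The log2 nucleus to cytoplasm ratio was 4.88 in the control and 3.65 in depleted cells (SE 0.16 each), a difference of -1.23 (SE 0.22).

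CG8026 (152861_at) was the one gene of the set with a near-equal signal in both control fractions. The intensities were 1340, 1626 and 1606 in the control cytoplasm and 1638, 1632 and 1764 in the control nucleus. After depletion the cytoplasm gave 1752, 1543 and 1858, overlapping the controls, and the nucleus 541, 415 and 518. All 3 depleted nuclear arrays thus lay below all other arrays of this gene. The log2 change was 0.13 (SE 0.23) in the cytoplasm and -1.82 (SE 0.23) in the nucleus, which placed CG8026 as the 22nd lowest of 8379 probe sets there. Its log2 ratio went from 0.23 to -1.72 (SE 0.23 each), a difference of -1.95 (SE 0.33).

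CG14903 (150028_at) differed in the other direction. Its cytoplasmic intensities were 5403, 6672 and 5477 in the control and 5584, 5507 and 4307 after depletion, and these groups overlapped. The nuclear intensities were 1583, 1314 and 1239 against 3401, 2515 and 3183, with every depleted array above every control. The log2 change was -0.27 (SE 0.17) in the cytoplasm and 1.1 (SE 0.17) in the nucleus, so that the log2 ratio moved from -1.97 to -0.6 (SE 0.17 each), a difference of 1.36 (SE 0.25). The cytoplasm remained the richer fraction for CG14903 under both treatments. With arrays centred on their medians the ratio difference was 0.88 (SE 0.3) and the cytoplasmic change 0.04.

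Serinc (151794_at) was brighter after depletion on every array of both fractions. In the cytoplasm its intensities were 96, 330 and 265 in the control and 1252, 692 and 876 after depletion. In the nucleus they were 15792, 13508 and 12358 in the control and 22176, 18113 and 21080 after depletion. The log2 change was 1.79 (SE 0.28) in the cytoplasm, the 14th highest of 8379 probe sets, and 0.63 (SE 0.28) in the nucleus. The log2 nucleus to cytoplasm ratio was 5.41 in the control and 4.26 in depleted cells (SE 0.28 each), and the difference of -1.16 (SE 0.4) was the smallest in size of the 7 genes. As with CG3164, the first control cytoplasm array was the lowest, at the 13.5 percentile of its array, and without it the cytoplasmic change was 1.35 (SE 0.19) and the ratio difference -0.72 (SE 0.25). The ratio difference was -0.71 (SE 0.4) with the GAPDH ratio, and -0.57 (SE 0.39) with the hybridisation controls, as a covariate. It was -0.72 (SE 0.29) with a pseudocount at the 40th percentile.

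A measure of RNA quality, the GAPDH ratio, moved with some of these values. So did the hybridisation controls and the sum of blood-like cell markers. The ratio of the 3' to the 5' GAPDH control probe set was 3.89 to 7.91 in the control cytoplasm, with 7.91 on the first array, and 2.36 to 3.63 in the depleted cytoplasm. It was 4.25 to 7.58 in the control nucleus and 4.2 to 8.32 in the depleted nucleus. The hybridisation controls had a mean log2 intensity of 12.46 to 14.65 in the control cytoplasm and 12.09 to 12.47 in the depleted cytoplasm, against 13.44 to 14.27 and 13.25 to 15 in the nuclei. The summed intensity of 10 blood-like cell markers was 6492 to 7859 in the control cytoplasm and 9227 to 10669 in the depleted cytoplasm. In the nucleus the sum was 72143 to 79829 in the control and 48856 to 56117 after depletion, which are the directions of miple2, Sil1 and CG3164. The brightest markers weigh most in such sums, which do not show how each marker moved. The part of these measures in the results was not tested beyond the covariate values given.

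**Figure D2:**
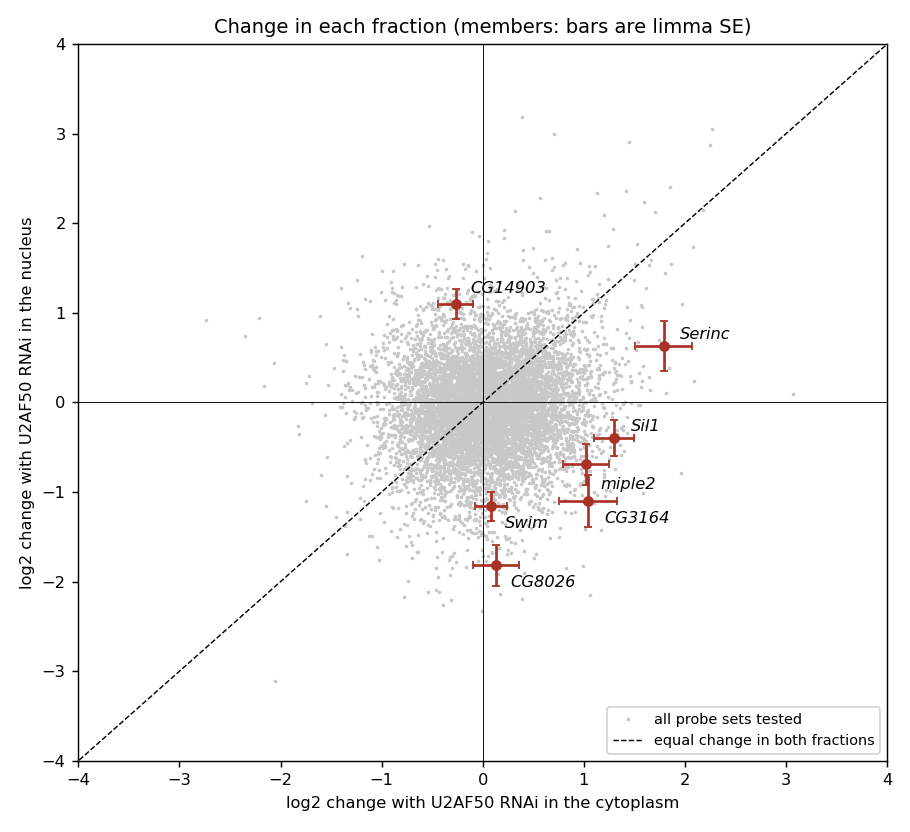
Log2 change with U2AF50 RNAi in the cytoplasm (x axis) against that in the nucleus (y axis) for the 7 genes, with limma SE as bars, over all 8379 tested probe sets in grey. The other 6 labelled genes lie below the dashed line of equal change, whereas CG14903, at -0.27 and 1.1, lies above it.

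Among the 7 genes, miple2, Sil1, Swim, CG3164 and Serinc had closely similar profiles over the 12 arrays, with pairwise Pearson r between 0.93 and 0.99. CG14903 ran opposite to these 5 genes, with r between -0.92 and -0.78, and CG8026 had r between -0.52 and -0.02 with the other genes. These correlations describe 12 arrays in 4 groups and are dominated by the difference between fractions. The changes of the 7 genes stood beside small median shifts of all probe sets, with a wide spread around them. The median log2 change of the 8379 tested probe sets was 0.04 in the cytoplasm, -0.05 in the nucleus and -0.11 for the ratio difference. That last median was 0.01 without normalisation and -0.38 after centring each array on its median, so ratio differences are read against a baseline that shifts with the scaling. In 80% of the 1705 probe sets that were higher in the nucleus the ratio difference lay between -1.08 and 0.64, with a median of -0.27. For 80% of all tested probe sets it lay between -0.96 and 0.77. The same share had a log2 change between -0.59 and 0.68 in the cytoplasm and between -0.72 and 0.59 in the nucleus. The cytoplasmic changes of Swim, CG8026 and CG14903 and the nuclear changes of miple2 and Sil1 lay inside these ranges, and those of the other genes outside.

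The calls by which the genes had been picked are part of the choice, and nothing is read from them. In the present fit 6 of the 7 met the adjusted p of 0.05 for the ratio difference (0.167% of tested probe sets did), with Swim (-1.23, SE 0.22) the smallest of them in size, and Serinc (-1.16, SE 0.4) did not. In the cytoplasm miple2, Sil1 and Serinc met it (1.77% of tested probe sets were called higher there). The choice was sensitive to the setting. Between 0 and 6 of the 7 met the ratio threshold in 23 alternatives, and 0 did so with either quality covariate, without control nucleus replicate 1 or 3, and without depleted cytoplasm replicate 2 or 3, while the number of all probe sets past the threshold went from 3 to 183. The genes outside the set with the largest ratio differences past the threshold were RpL28 (2.34, SE 0.31), a ribosomal protein gene, eIF6 (2.29, SE 0.3) and U2af50 (1.96, SE 0.37). In the cytoplasm they were Nop60B (3.07, SE 0.44), CG18547 (2.27, SE 0.32) and CG43798 (2.24, SE 0.45).

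The mean difference between fractions over both treatments is orthogonal, in this balanced design, to the contrasts that picked the genes, and it was tested. Orthogonality separates the errors only, so the mean can still hold a change by which a gene was picked. The mean shares with those contrasts the estimate of spread, and the large nuclear excess of Serinc in control cells was known from earlier results. In the control cytoplasm miple2 and Serinc were dim, at the 28.0 to 35.0 and the 13.5 to 45.1 percentile of their arrays. Their passing the filter on mean signal may thus have rested on the nucleus, where they are high. Of the 7 genes, 5 had a nuclear excess and 2 a cytoplasmic one past the threshold, against 20.3% of all tested probe sets called higher and 36.5% called lower. Serinc had the 9th highest value of 8379 probe sets, 4.84 on the log2 scale (SE 0.2, limma adjusted p = 7.66e-13). Swim followed with 4.27 (SE 0.11, limma adjusted p = 3.58e-15), then miple2 with 3.74 (SE 0.16) and Sil1 with 3.65 (SE 0.14), which differed by less than their errors. The mean nuclear excess of CG3164 was 2.92 (SE 0.2, limma adjusted p = 9.19e-10). On the other side, CG14903 had -1.29 (SE 0.12, limma adjusted p = 7.33e-08) and CG8026 -0.75 (SE 0.17, limma adjusted p = 8.96e-04). The mean of CG8026 combines a ratio near 0 in the control (0.23) with a negative one in depleted cells (-1.72). Its call thus rests on the change by which the gene was picked, and it is not separate from that choice. The 5 higher and 2 lower calls were made under each of the 23 alternative settings.

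**Figure D3:**
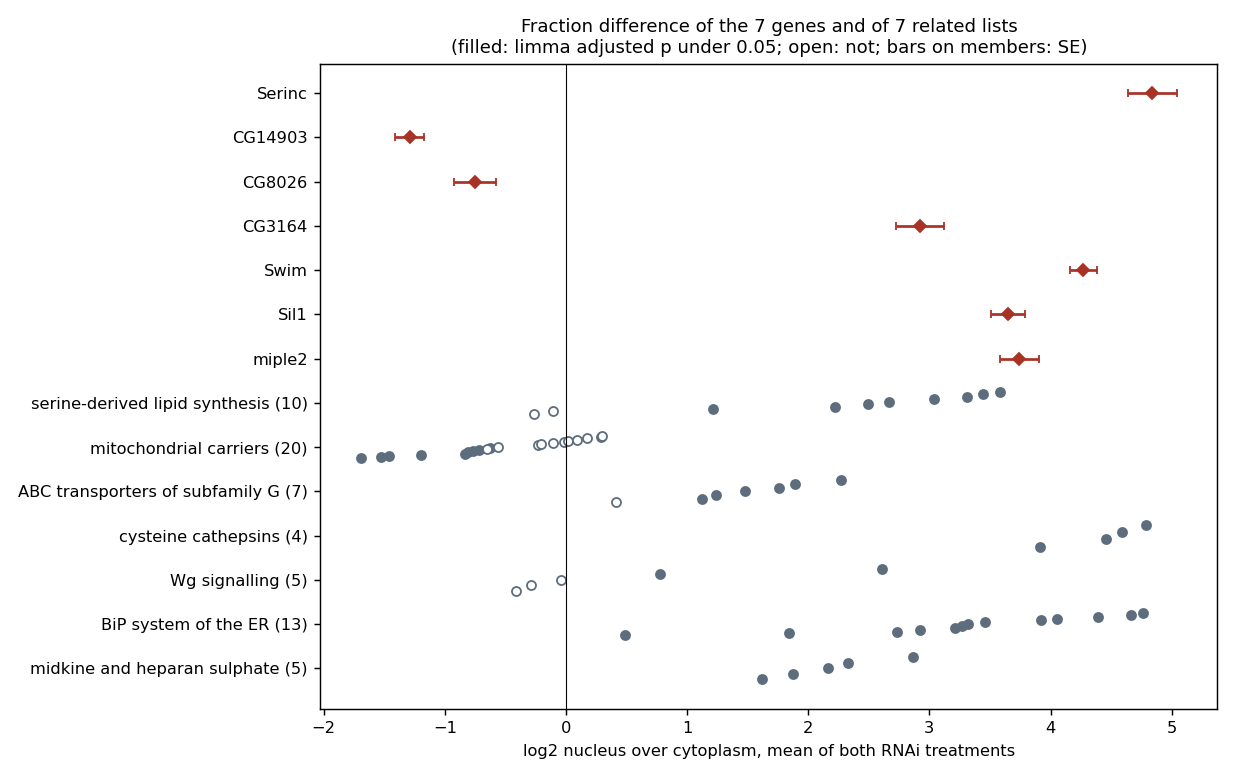
Log2 nucleus over cytoplasm, averaged over both RNAi treatments, for the 7 genes (diamonds with SE) and for genes of 7 related families or pathways (circles, filled where limma's adjusted p was under 0.05). Genes of the BiP system and the cathepsins lie to the right, at 0.49 to 4.76 and 3.91 to 4.79, and mitochondrial carriers at -1.69 to 0.3.

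Genes related to the 7 by family or pathway were examined in the same fit, with 1 probe set per gene, the brightest. The lists were drawn up by family and pathway and not by value, but with earlier results of these data known. They held 64 tested genes. In the mean difference between fractions 38 of the 64 were higher in the nucleus and 9 lower. Of all tested probe sets 20.3% were called higher and 36.5% lower. All 9 lower genes were mitochondrial carriers, and all 38 higher ones came from the other lists. The median over all tested probe sets was -0.27. With U2AF50 RNAi 2 of the 64 rose and 0 fell in the cytoplasm, and 0 rose and 1 fell in the nucleus. As a background, 1.77% of all tested probe sets were called higher and 0.8% lower in the cytoplasm, with 1.58% higher and 1.83% lower in the nucleus. At an unadjusted p under 0.05, 16 of the 64 were higher and 4 lower in the cytoplasm (25% and 6.25%), where 9.57% and 6.21% of all tested probe sets were. In the nucleus 1 was higher and 7 lower (1.56% and 10.9%, against 6.78% and 9.64%).

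By list, these unadjusted counts in the cytoplasm were 5 higher and 1 lower for the BiP system, 4 and 3 for mitochondrial carriers, 2 and 0 each for the midkine, cathepsin and ABC transporter lists, 1 and 0 for serine-derived lipids and 0 and 0 for the Wingless pathway. In the nucleus they were 0 higher and 4 lower for serine-derived lipids, 1 and 1 for carriers, 0 and 1 each for the BiP system and the ABC transporters, and 0 and 0 for the other lists. The lists were small, and these counts were not tested.

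For the partners of Sil1, all 13 tested genes of the BiP system were higher in the nuclear fraction, with a median log2 value of 3.32. The disulfide isomerase genes CaBP1 (4.76, SE 0.1) and ERp60 (4.66, SE 0.1) and P58IPK (4.39, SE 0.11), a cochaperone of BiP, were highest. Sil1 at 3.65 lay below these and within the range of all 13, 0.49 to 4.76. The lowest was Hsc70-3, the gene of BiP itself, at 0.49 (SE 0.15). With U2AF50 RNAi 1 of the 13 rose in the cytoplasm. This was Pdi, a further disulfide isomerase, with intensities of 3490, 2603 and 3384 in the control and 5399, 5358 and 5934 after depletion (log2 change 0.72, SE 0.15, limma adjusted p = 0.0166). Its nuclear intensities overlapped between treatments. The call of Pdi was lost without control cytoplasm replicate 2 (limma adjusted p = 0.0696) and without each of the depleted cytoplasm replicates 1, 2 and 3 (limma adjusted p = 0.0508, 0.0569 and 0.0959). It was also lost with the GAPDH ratio as a covariate (limma adjusted p = 0.1974) and without the intensity trend (limma adjusted p = 0.159). The ratio difference of the 13 genes had a median of -0.21 and reached from -0.8 for Pdi to 0.68 for Hsc70-3, whereas that of Sil1 was -1.7. The cytoplasmic log2 change on this Hsc70-3 probe set was -0.67 (SE 0.21, limma adjusted p = 0.104), opposite in sign to that of Sil1 and not called.

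In the midkine and heparan sulphate list, 5 of 5 tested genes were higher in the nucleus (median 2.16). Sdc, a transmembrane heparan sulphate proteoglycan, had 2.86 (SE 0.13), trol, the perlecan of basement membranes, 2.33 (SE 0.23), and botv, an enzyme of heparan sulphate synthesis, 2.16 (SE 0.22). None of the 5 changed past the threshold with U2AF50 RNAi in either fraction by limma. Around Swim, the 4 cysteine cathepsin genes were all higher in the nucleus, with a median of 4.52. CtsK1 had 4.79 (SE 0.15), CtsF 4.59 (SE 0.14) and CtsL1 4.46 (SE 0.09), close to the 4.27 of Swim. Of the Wingless pathway only 5 genes were tested, of which 2 were higher, wls (2.61, SE 0.26), which carries Wingless to the cell surface, and por (0.78, SE 0.23), which attaches its lipid. The call of por was lost with the hybridisation controls as a covariate (limma adjusted p = 0.0822). With depletion 0 of the 4 cathepsins and 0 of the 5 pathway genes were called in either fraction by limma.

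ABC transporters of subfamily G, the family of CG3164, had 6 of 7 tested genes higher in the nucleus, with a median of 1.48. CG9663 had 2.27 (SE 0.13), CG31689 1.89 (SE 0.23) and CG4822 1.76 (SE 0.09), all below the 2.92 of CG3164. A second probe set of CG4822 gave 1.09, and that of CG17646, counted as higher at 1.12, gave 0.26. Genes that make or break down serine-derived lipids, listed beside Serinc, had 8 of 10 higher, with a median of 2.58. They were led by Kdsr (3.58, SE 0.19), lace (3.44, SE 0.11) and Spt-I (3.31, SE 0.17). The 2 not called were nSMase (-0.11) and Sply (-0.26), and the lowest of the 8 called was bwa, at 1.21 (SE 0.17). For SMSr, counted as higher at 2.22, a second probe set gave -0.48. lace and Spt-I encode the subunits of serine palmitoyltransferase, the enzyme that starts sphingolipid synthesis. Spt-I fell in the nucleus with depletion, from 9728, 10362 and 13101 to 5532, 5014 and 3628 (log2 change -1.03, SE 0.24, limma adjusted p = 0.0275), the 1 gene of the 10 that did. Its nuclear groups did not overlap, and its cytoplasmic intensities did. The call was lost without any 1 of the control nucleus replicates (limma adjusted p = 0.0615, 0.0832 and 0.1357), without depleted nucleus replicate 3 (limma adjusted p = 0.0815) and without the intensity trend (limma adjusted p = 0.0853).

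Mitochondrial carriers, the family of CG8026, had 9 of 20 tested genes lower in the nucleus (45%, against 36.5% of all tested probe sets) and 0 higher, with a median of -0.6 beside -0.27 for all. Centred on array medians, 14 of all related genes were lower in the nucleus, against 9 here. The phosphate carrier gene Mpcp2 had -1.69 (SE 0.1), the ADP/ATP carrier gene sesB -1.53 (SE 0.1) and MME1, a carrier of magnesium, -1.46 (SE 0.21). In the cytoplasm Mpcp2 was the 1 carrier gene that rose with depletion, from 11486, 12207 and 13474 to 15254, 21649 and 18585 (log2 change 0.64, SE 0.15, limma adjusted p = 0.0308). That call was lost in 10 of 23 alternative settings, among them the values as deposited (limma adjusted p = 0.0718) and the fits without control cytoplasm replicate 1 or 2 or depleted cytoplasm replicate 2 or 3 (limma adjusted p = 0.0915, 0.0974, 0.1649 and 0.1343). In the nucleus 0 of the 20 carriers were called with depletion by limma. For the ratio difference 0 of all 64 related genes passed limma's threshold, with 2 higher and 10 lower at an unadjusted p under 0.05 (3.12% and 15.6%). Over all tested probe sets these shares were 5.13% and 7.89%, around a median of -0.11.

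**Figure D4:**
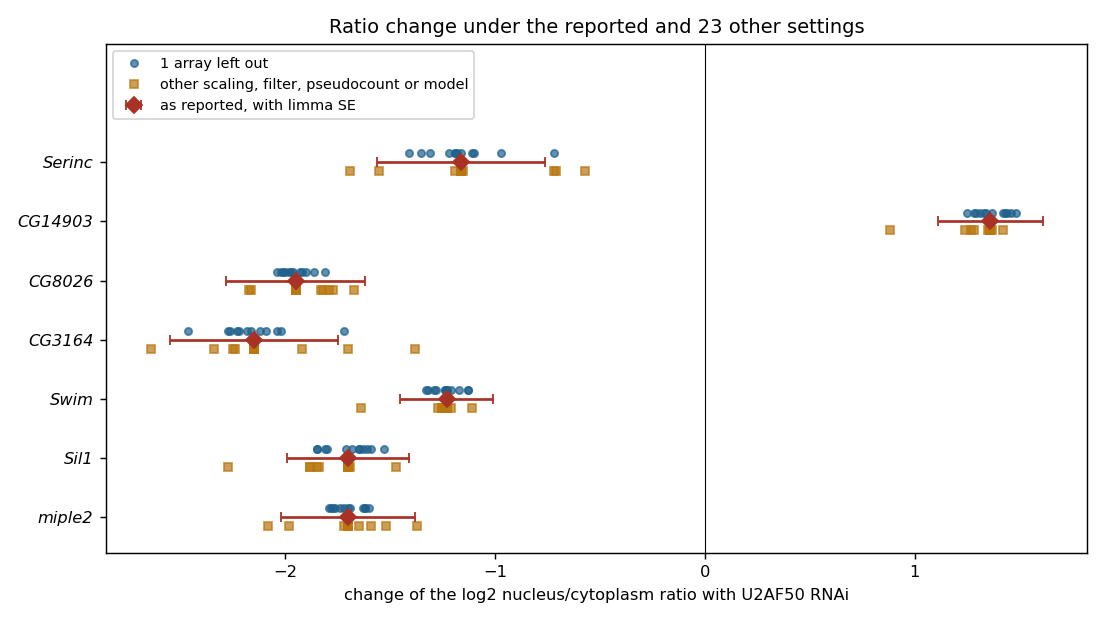
Change of the log2 nucleus to cytoplasm ratio with U2AF50 RNAi for each of the 7 genes as reported (diamonds with limma SE) and under 23 other settings (circles with 1 array left out, squares for other scalings, filters, pseudocounts or models). No setting moved a gene across 0, and the points of Serinc (-1.69 to -0.57) and CG3164 (-2.64 to -1.38) spread the most.

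The genes with the most similar signal over the 12 arrays were found for each of the 7 by Pearson correlation of normalised log2 values among the tested probe sets. For miple2 they were CG14969 (r = 0.998), CG33116 (r = 0.995) and CG4822 (r = 0.995). For Sil1 they were CG5888 (r = 0.995), Agpat3 (r = 0.994), an acyltransferase gene of phospholipid synthesis, and again CG14969 (r = 0.994). CG14969 had log2 changes of 0.87 in the cytoplasm and -0.51 in the nucleus, beside 1.02 and -0.69 for miple2. Second probe sets were less similar, with r = 0.742 to miple2 for CG4822 and r = 0.924 to Sil1 for Agpat3. For Swim they were QC (r = 0.996), the glutaminyl cyclase gene, the long noncoding RNA CR42862 (r = 0.995) and CG7744 (r = 0.995). CR42862 had -0.05 in the cytoplasm and -1.5 in the nucleus, beside 0.08 and -1.16 for Swim. A second probe set of CR42862 gave -0.33 and -1.93 (r = 0.969 with Swim).

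CG3164 was closest to ifc (r = 0.991), the dihydroceramide desaturase gene, with 0.49 in the cytoplasm and -0.85 in the nucleus, followed by CG4880 (r = 0.985) and CG31678 (r = 0.984). For Serinc they were atl (r = 0.997), which encodes a membrane-fusing GTPase of the ER, Pld3 (r = 0.994) and BI-1 (r = 0.993). BI-1, a gene of an ER membrane protein that restrains cell death, had 1.27 in the cytoplasm and 0.48 in the nucleus on this probe set. On a second one (r = 0.968) these were 0.65 and 0.55. CG8026 and CG14903, the 2 genes lower in the nucleus on average, had neighbours at lower r. CG8026 was followed by CG10435 (r = 0.937), the kinase gene S6KL (r = 0.929) and mst (r = 0.922), whose nuclear log2 changes were -1.77, -2.12 and -2.09, beside -1.82 for CG8026. CG14903 was followed by RpL24-like (r = 0.955), fidipidine (r = 0.948) and Wdr82 (r = 0.948), a gene of a histone methyltransferase complex, with nuclear changes of 0.73, 1.39 and 0.86, beside 1.1. Likeness over 12 arrays from 4 groups is a description of these data.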

How the data were processed

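RNA of 12 samples was measured on 1-colour Affymetrix fly genome arrays. The authors deposited linear intensities for 14010 probe sets. From the values, their scaling set the 2% trimmed mean of each array to 1000. How images were read, background removed and probes combined is not given in the sources used here. From these intensities 44 control probe sets were removed, log2(intensity + 94.7) was taken (94.7 is the 20th percentile of all values) and the arrays were quantile normalised. Such log2 changes understate those of dim genes. Probe sets with a mean above the 40th percentile were tested (8379). limma 3.58.1 in R 4.3.3 (lmFit, eBayes with trend) was fitted over 12 arrays, with 8 residual and 9 prior degrees of freedom and Benjamini-Hochberg adjustment over all tested probe sets, at an adjusted p under 0.05. The number of arrays limits the precision.

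In the platform annotation 12443 probe sets had 1 symbol, 327 had several and 1240 had none, and 12393 matched current RefSeq names (Release 6), with 0 updated. Of the Wingless pathway list 6 of 18 genes had a probe set named here. Named genes were the 7 genes, U2af50, up to 3 called genes per related list and contrast with the largest change, 3 most similar genes each, and the 3 largest other ratio and cytoplasmic changes. The genes and lists were chosen with earlier results of these data known. Same-numbered arrays did not deviate together from their group means (r between -0.09 and 0.06), so no pairing was used. The limma fit was tested on simulated log2 arrays with 200 of 8379 probe sets changed, a far smaller share than was called between fractions. The fit alone was tested, without pseudocount, normalisation or filter, and not for the ratio difference. For the mean fraction difference it recovered 64% of log2 changes of 1 and 88% of changes of 2, with 3.6% of calls false, and for the cytoplasmic treatment contrast 38% and 90%, with 8.9% of calls false, above the nominal rate. Alternatives covered scaling, pseudocount, filter, prior, replicate block, 2 covariates (the GAPDH ratio and the hybridisation controls) and each array left out.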

Additional observations from a re-analysis of the deposited data

Results flagged for a closer look

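Opposite moves in the 2 fractions, with all 3 depleted arrays above the controls in the cytoplasm and below them in the nucleus, were seen for miple2 (ratio difference -1.7), CG3164 (-2.15) and CG4822, the ABC transporter gene (-0.61, SE 0.19, limma adjusted p = 0.198, with -0.17 for its other probe set). Of all tested probe sets 14.5% had all depleted arrays above the controls in the cytoplasm, and 10.2% had them below in the nucleus. The share with both was not counted, so how unusual this pattern is cannot be said. For miple2 and CG3164 no test of the difference is offered, because both were picked by it. For U2af50, the RNAi target, the change differed between fractions by a test of the difference itself (1.96, SE 0.37, limma adjusted p = 0.0375), with log2 changes of -1.75 in the cytoplasm and 0.21 in the nucleus. That test passed in 8 of 23 alternative settings, where the value lay between 1.58 and 2.27.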

How the results depend on the processing

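The mean fraction call of CG8026 rests on the change by which it was picked, and nuclear signal may have carried miple2 and Serinc past the filter. With these limits, the mean fraction calls of the 7 genes kept their direction and side of the threshold in all 23 alternative settings. The 68 single values of these genes, U2af50 and related genes gave 1563 recomputed values, of which 1475 stayed within the spread or on the same side of the threshold, 50 moved by more than 1 SD, 37 lost a call and 1 reversed, the uncalled nuclear change of U2af50 (0.21, -0.02 without depleted nucleus replicate 1, and -0.02 to 0.35 with 1 array left out). Counts of called related genes with treatment were small and moved easily. Risen in the cytoplasm were 2 genes as reported, 1 on the values as deposited or with no filter, 6 with arrays centred on their medians, 0 with no intensity trend or with the GAPDH ratio as covariate, and 0 to 6 with 1 array left out (0 without control cytoplasm replicate 2 or depleted replicate 2 or 3, and 6 without control replicate 3). Fallen in the cytoplasm were 0, and 0 to 2 with 1 array left out. In the nucleus 1 had fallen, 0 with no trend, 2 as deposited, centred on medians, with quantiles within fractions, with a pseudocount at the 40th percentile, with a filter at the 60th percentile, with the replicate block and with each covariate, and 0 to 3 with 1 array left out. Risen in the nucleus were 0, and 0 to 1 with 1 array left out. For the ratio difference 0 were lower, 1 as deposited, 5 centred on medians, 1 with the replicate block, and 0 to 1 with 1 array left out. Lower in the nuclear fraction were 9 related genes, 14 centred on medians. The cause of these differences was not tested.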
